A study of Mus musculus with 4 samples.

Results

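Of 69349 autosomal regions of open chromatin found in bone marrow-derived macrophages (BMDMs), 8492 (12.2%) had their centre more than 100 kb from every transcription start site (TSS) of a protein-coding gene. These far distal regions were chosen by position only. The peaks of 4 ATAC-seq libraries were merged wherever they overlapped by at least 1 bp, which gave 71243 regions, and the 1894 regions on the X chromosome were set aside. Distances were measured on mm10 to the TSSs of 21951 protein-coding genes of GENCODE vM21. The remaining 60857 autosomal regions lay nearer to a TSS and served as the comparison.

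The study asked how loss of the histone variant H3.3 alters chromatin accessibility in macrophages. WT mice carried loxP-flanked H3f3a and H3f3b alleles on both chromosomes (H3f3a fl/fl H3f3b fl/fl) and no Cre, while cKO mice carried the same alleles with LysM-Cre on both copies of the Lyz2 locus, on the B6/J background. Bone marrow was grown for 6 to 8 days in L929 conditioned medium, and 2 libraries per genotype were sequenced, described as biological replicates. Cre expressed from Lyz2 acts in myeloid cells, the floxed parts were exon 2 of H3f3a and exons 1 to 4 of H3f3b, and the loss of H3.3 cannot be told apart from the presence of Cre or the change at Lyz2.

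H3.3 is placed into chromatin outside of DNA replication, at active genes and enhancers by one set of chaperones and at telomeres and repeats by another. Regions far from genes that are open in a differentiated cell are often enhancers or sites bound by CTCF, the protein at which cohesin-held chromatin loops stop. In macrophages PU.1 and C/EBP factors mark the enhancer repertoire, and AP-1, RUNX, interferon-linked and NF-kB factors work on top of it.

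A region was called gained when both cKO libraries and neither WT library had a peak in it, and lost when both WT libraries and neither cKO library did. Peak strength is given as a percentile of the deposited peak area within its own library, where 100 is the strongest peak of that list. The windows printed here run 100 bases to each side of the summit of the strongest peak in a region, on the plus strand of mm10, and capitals mark matches to the motifs searched. The first 3 belong to the strongest gained far distal regions, the next 3 to the strongest lost ones and the next 2 to the strongest ones called in all 4 libraries.

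Gained, near Fgf14, chr14:124800667-124800867: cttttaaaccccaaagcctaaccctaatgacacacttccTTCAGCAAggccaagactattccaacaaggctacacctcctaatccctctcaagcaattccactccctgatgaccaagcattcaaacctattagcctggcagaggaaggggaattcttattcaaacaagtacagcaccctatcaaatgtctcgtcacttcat
Gained, near Cr2, chr1:195371340-195371540: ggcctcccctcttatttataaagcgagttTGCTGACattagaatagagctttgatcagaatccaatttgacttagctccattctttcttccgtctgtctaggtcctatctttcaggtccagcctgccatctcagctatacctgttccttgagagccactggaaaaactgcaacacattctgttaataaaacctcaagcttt
Gained, near Fancc, chr13:63305852-63306052: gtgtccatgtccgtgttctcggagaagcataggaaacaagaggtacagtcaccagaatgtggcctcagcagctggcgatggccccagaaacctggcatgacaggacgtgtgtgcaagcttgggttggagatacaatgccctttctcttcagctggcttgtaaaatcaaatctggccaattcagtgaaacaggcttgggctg
Lost, near Ldlrad3, chr2:102057259-102057459: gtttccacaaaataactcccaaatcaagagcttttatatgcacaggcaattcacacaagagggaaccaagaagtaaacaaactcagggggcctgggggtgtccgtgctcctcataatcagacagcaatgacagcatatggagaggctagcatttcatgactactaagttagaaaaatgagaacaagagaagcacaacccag
Lost, near Slc7a11, chr3:50694651-50694851: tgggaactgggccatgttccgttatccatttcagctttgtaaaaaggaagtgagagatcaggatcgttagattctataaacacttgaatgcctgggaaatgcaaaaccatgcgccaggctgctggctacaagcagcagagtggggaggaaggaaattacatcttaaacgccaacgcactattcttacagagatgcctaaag
Lost, near Armc2, chr10:42122959-42123159: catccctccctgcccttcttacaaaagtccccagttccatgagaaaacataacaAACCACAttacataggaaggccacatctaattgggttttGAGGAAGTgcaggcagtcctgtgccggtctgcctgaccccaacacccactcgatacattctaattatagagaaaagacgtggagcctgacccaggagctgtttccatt
Shared, near Esp38, chr17:39844015-39844215: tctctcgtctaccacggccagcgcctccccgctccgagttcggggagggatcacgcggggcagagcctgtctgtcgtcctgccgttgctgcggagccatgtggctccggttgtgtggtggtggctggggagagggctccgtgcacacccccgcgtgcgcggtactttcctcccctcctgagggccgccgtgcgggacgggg
Shared, near Smim15, chr13:107890217-107890417: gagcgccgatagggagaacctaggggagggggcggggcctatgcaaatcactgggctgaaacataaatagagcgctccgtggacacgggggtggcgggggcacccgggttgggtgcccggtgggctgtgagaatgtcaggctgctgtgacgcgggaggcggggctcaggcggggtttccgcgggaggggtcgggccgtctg

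The gained windows held a C/EBP match near Fgf14, a MAF half-site near Cr2 and no match near Fancc. Of the lost windows, the one near Armc2 held a RUNX and a PU.1 match and the others held none. Both shared windows held none. The next 3 windows were chosen after their values were seen. They show the 2 gained far distal regions with a CTCF match that had the highest mean cKO percentile, and the strongest lost region between Runx1 and Setd4.

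Gained with CTCF match, near Hace1, chr10:46012017-46012217: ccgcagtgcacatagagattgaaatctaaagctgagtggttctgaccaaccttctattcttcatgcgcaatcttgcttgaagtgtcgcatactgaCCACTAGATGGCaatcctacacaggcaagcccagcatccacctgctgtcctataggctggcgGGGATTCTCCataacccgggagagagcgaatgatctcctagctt
Gained with CTCF match, near 2610001J05Rik, chr6:14207622-14207822: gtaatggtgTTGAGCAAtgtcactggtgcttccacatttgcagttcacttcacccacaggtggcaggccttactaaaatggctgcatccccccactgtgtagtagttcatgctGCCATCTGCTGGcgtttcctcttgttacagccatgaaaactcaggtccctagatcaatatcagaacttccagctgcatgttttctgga
Lost, near Runx1, chr16:93142183-93142383: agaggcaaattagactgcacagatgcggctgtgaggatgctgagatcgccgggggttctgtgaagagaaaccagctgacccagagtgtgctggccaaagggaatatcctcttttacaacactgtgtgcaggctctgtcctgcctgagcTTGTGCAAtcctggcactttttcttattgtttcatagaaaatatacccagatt

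Most far distal regions were open in both genotypes. Of the 8492, 4829 (56.9%; 95% Wilson interval 55.8 to 57.9) were called in all 4 libraries, against 63.0% of all autosomal regions and 58.0% of those 1 to 100 kb from a TSS. There were 488 gained (5.75%; 5.27 to 6.26) and 684 lost (8.05%; 7.49 to 8.65) far distal regions. Over all autosomal regions 3.76% were gained and 7.32% lost. Intervals cover counting over regions only, since regions are not replicates of a condition and neighbouring ones are not independent.

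Gained calls were more frequent far from genes than nearer. Among regions 1 to 100 kb from a TSS, which leaves promoters out, 1981 of 48564 (4.08%) were gained, a share lower by 1.67 percentage points (interval of the difference 1.16 to 2.21). The far distal share was the higher one on 18 of 19 autosomes, the exception being chromosome 18 with 5.32% against 5.90%. Lost calls differed little, at 8.05% against 8.46%, with a difference of -0.40 points (-1.02 to 0.242). Leaving out any 1 library kept the gained difference positive (1.70 to 2.97), although the calls then rest on 3 libraries. The balance of gained and lost regions moved with the library left out and with the length of the lists. There were 504 gained and 1306 lost regions without WT replicate 1 and 543 and 1140 without cKO replicate 2, but 870 and 731 without WT replicate 2 and 1103 and 718 without cKO replicate 1. With all lists cut to the length of the shortest, 708 were gained and 605 lost, so which call was the more frequent depended on these choices.

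Other patterns followed the length of the lists. Replicate 2 was the longer list in both genotypes, and 620 far distal regions (7.30%) were called in WT replicate 2 alone and 613 (7.22%) in cKO replicate 2 alone. A call in replicate 1 alone was rare, with 41 regions for WT and 52 for cKO. Both replicate 2 libraries alone shared 255 regions (3.003%), against 2.84% of all autosomal regions. A further 456 regions missed only cKO replicate 1 and 380 missed only WT replicate 1. The other 5 patterns held 34, 17, 16, 6 and 1 regions.

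**Figure D1:**
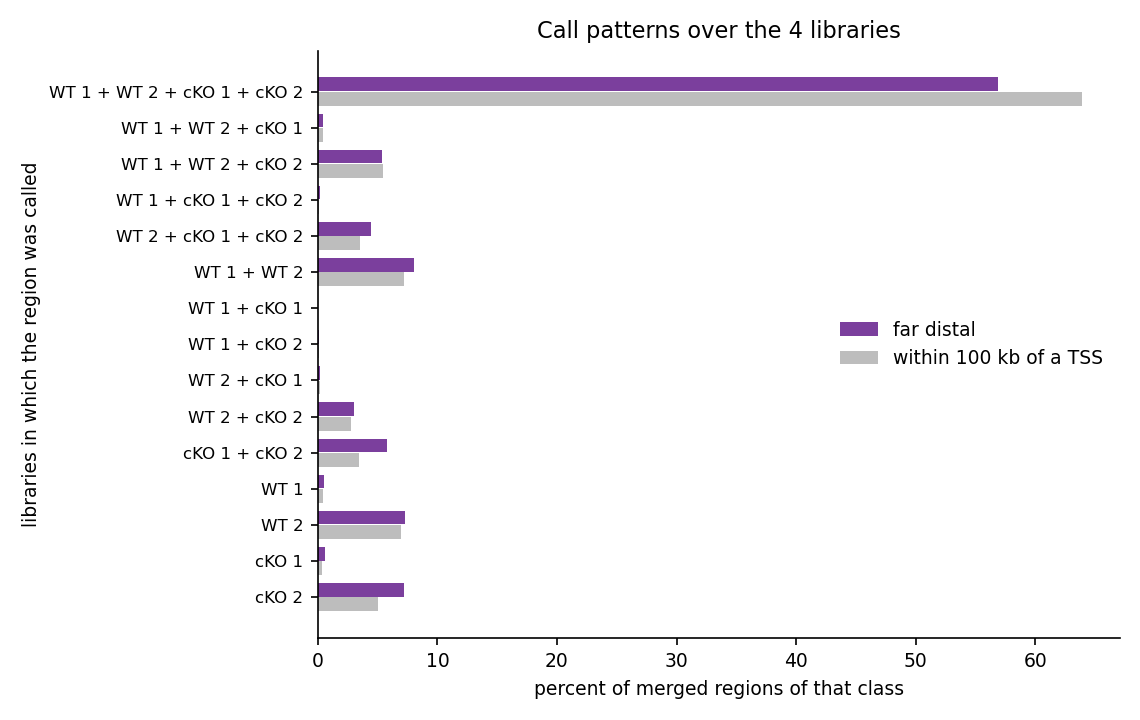
Percent of merged autosomal regions with each of the 15 possible call patterns over the 4 libraries, for far distal regions (purple, 8492 regions) and regions within 100 kb of a protein-coding TSS (grey, 60857 regions). The bar for both cKO libraries alone reaches 5.75% for far distal regions and 3.48% for the nearer ones, and the bar for all 4 libraries is the shorter of the pair for far distal regions.

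Each library held a similar number of far distal regions in both genotypes. WT libraries held 6067 and 7275 (6671 ± 854, SD, n = 2) and cKO libraries 5817 and 7043 (6430 ± 867), so that the replicates of one genotype differed by more than the genotypes did (difference -241, exact permutation p = 0.667, two-sided). Far distal regions made up 11.4% and 11.7% of the autosomal regions called in the WT libraries and 11.7% and 12.1% in the cKO libraries. The 2 genotypes did not overlap, by a narrow margin between WT replicate 2 (11.669%) and cKO replicate 1 (11.714%). Their means were 11.5 ± 0.205 against 11.9 ± 0.240 (exact permutation p = 0.333). With peaks above the median area of their list, a 50 kb limit or 50% cover of a region, the exact permutation p was 0.667. With 2 against 2 libraries 0.333 is the smallest p that the test can give. This limit applies to every exact p in this text that equals 0.333.

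The far distal peaks ranked below those of nearer regions as a whole, and somewhat fewer of the strongest ones were in cKO. Their median percentile was 43.9 and 44.8 in the WT libraries and 43.3 and 44.2 in the cKO libraries (difference -0.62, exact permutation p = 0.667). Regions 1 to 100 kb from a TSS had medians of 42.8 and 43.4 in WT and 42.6 and 43.3 in cKO, close to the far distal values. The top 10% of each list included 4.81% and 5.02% of the far distal peaks of WT and 4.14% and 4.10% of those of cKO (difference -0.79 points, exact permutation p = 0.333).

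Gained and lost regions were both weak and narrow. The median percentile was 20.0 for gained, 20.5 for lost and 53.5 for shared far distal regions, and the median width was 291.5, 328 and 518 bp. Soft-masked repeats filled most of the summit window in 9.63% of gained, 5.41% of lost and 3.96% of shared regions. Most gained and lost regions thus ranked low in the lists. Where a region was called in all 4 libraries, its percentiles could be set side by side. Each is a rank within its own list, and the lists differed in length (55742 and 64939 peaks in WT, 51955 and 60884 in cKO). How list length moved these ranks was not tested. Both cKO libraries ranked above both WT libraries in 1278 (26.5%) of 4829 far distal regions, against 22.3% of all shared autosomal regions. Both ranked below in 1701 (35.2%), against 35.5%.

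Far distal regions were spread thinly, with 8.78 regions per Mb over the 967 Mb that lie beyond 100 kb, against 42.6 per Mb within it. Of the 8492, 4209 (49.6%) were intergenic, 3793 (44.7%) in an intron, 243 in an exon and 247 at the promoter of a non-coding or other gene. Intergenic regions were gained in 6.06% and lost in 7.70%, and intronic regions in 5.46% and 8.67%. The 2991 regions inside a protein-coding gene body, always far from its start, had 5.25% gained and 9.16% lost. Another 1493 were more than 100 kb from every annotated TSS of any gene type, and of these 87 (5.83%) were gained and 120 (8.04%) lost.

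The share of gained regions was higher, and that of lost regions lower, at greater distance. Between 100 and 200 kb 257 of 5270 regions were gained (4.88%) and 457 lost (8.67%). Between 200 and 500 kb 177 of 2645 were gained (6.69%) and 199 lost (7.52%). Between 500 and 1000 kb 42 of 454 were gained (9.25%) and 23 lost (5.07%), and beyond 1000 kb 12 of 123 were gained (9.76%; 5.67 to 16.3) and 5 lost (4.07%). Beyond 500 kb as a whole, 54 of 577 regions were gained (9.36%; 7.24 to 12.01) and 28 lost (4.85%; 3.38 to 6.92), while 286 (49.6%) were called in all 4.

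The size of that excess of gained over lost regions, and its sign, depended on the libraries and peaks used. The difference beyond 500 kb was 4.51 points with all 4 libraries and -4.01 points without WT replicate 1, and it lay at 0.388 without cKO replicate 2, 11.6 without WT replicate 2 and 14.7 without cKO replicate 1. Leaving out a library let 1 list decide the calls of that genotype, so these values cannot tell which library the excess came from. Among settings that kept all 4, the main one had an interval of 1.55 to 7.54. Lists of equal length gave 8.30 points (4.59 to 12.1). The interval included 0 for peaks above the median area of their list (2.46, -2.40 to 7.39). It also did for 50% cover of a region (2.95, -0.21 to 6.14). Per library, 349 and 454 regions beyond 500 kb were called in WT and 386 and 489 in cKO, so the counts of the genotypes overlapped. As a share of the autosomal regions called they were 0.655% and 0.728% in WT and 0.777% and 0.837% in cKO, which did not overlap (exact permutation p = 0.333). Among regions called in all 4 libraries, 24.6% ranked higher in both cKO libraries and 35.7% lower at 100 to 200 kb, and 39.0% higher and 13.6% lower beyond 1000 kb.

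**Figure D2:**
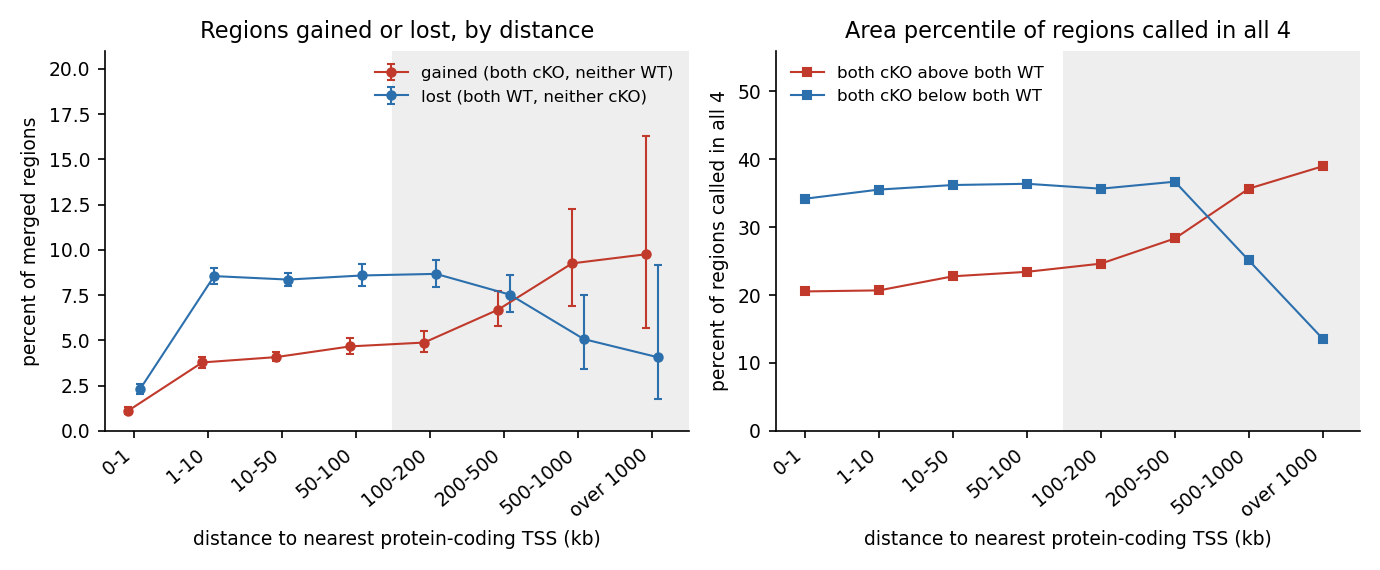
Left: percent of merged autosomal regions gained (red) or lost (blue) in each band of distance to the nearest protein-coding TSS in kb, with 95% Wilson intervals over regions. Right: among regions called in all 4 libraries, the percent in which both cKO percentiles were above (red) or below (blue) both WT percentiles. The shaded bands are the far distal ones. Gained regions passed lost ones beyond 500 kb.

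Base composition changed along the same axis. The median GC content of the summit windows was 46.8% at 100 to 200 kb and 40.8% beyond 1000 kb, and mostly masked windows made up 4.90% and 11.4%. Within bands of GC content the gained share stayed higher for far distal regions than for regions 1 to 100 kb from a TSS in all 6 bands, from 8.85% against 5.45% at a GC content of 38% or less to 3.23% against 3.14% above 54%. The part that GC content and repeats play in the distance pattern was not tested further.

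**Figure D3:**
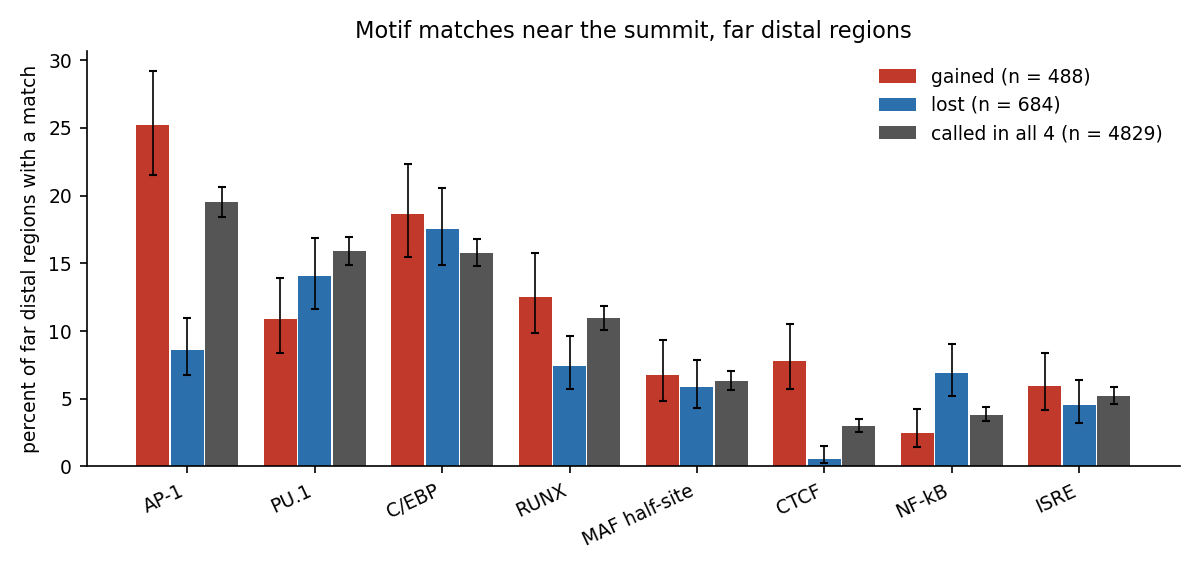
Percent of gained (red, n = 488), lost (blue, n = 684) and shared (dark grey, n = 4829) far distal regions with a match to each of 8 motifs within 100 bp of the summit, with 95% Wilson intervals over regions. The AP-1 bar is 25.2% for gained and 8.63% for lost regions, and the CTCF bar is 7.79% for gained and 0.585% for lost regions.

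Motif letters were searched on both strands, allowing overlaps between motifs. The AP-1 motif was TGACTCA or TGAGTCA, PU.1 was GAGGAAGT, C/EBP was TTGCNNAA, RUNX was AACCACA and the MAF half-site was TGCTGAC. The interferon-stimulated response element (ISRE) was, like CTCF and NF-kB, searched by a degenerate consensus sequence. A match is a description of letters, not evidence that the factor was bound. Over all autosomal regions, 13.5% had an AP-1, 11.0% a PU.1, 12.3% a C/EBP, 8.37% a RUNX, 5.68% a MAF, 4.16% a CTCF, 4.89% an NF-kB and 3.88% an ISRE match. Far distal regions had more PU.1 (14.6%), C/EBP (15.8%), AP-1 (17.4%) and RUNX (10.5%) matches and fewer CTCF (3.66%) and NF-kB (3.93%) matches.

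AP-1, formed by Fos and Jun family proteins, separated gained from lost regions most widely. Its motif was in 123 of 488 gained (25.2%), 59 of 684 lost (8.63%) and 19.5% of shared far distal regions, a gained minus lost difference of 16.6 points (12.2 to 21.03). The nearer regions had 21.7% and 7.08%. In single libraries, 17.6% and 16.8% of far distal regions called in WT had the motif, against 19.9% and 19.1% in cKO (exact permutation p = 0.333). Among the 942 shared regions with the motif, 386 (41.0%) ranked higher in both cKO libraries and 227 (24.1%) lower. Over all shared far distal regions these shares were 26.5% and 35.2%. Of the 1480 regions with an AP-1 match, 123 (8.31%) were gained and 59 (3.99%) lost, against 5.75% and 8.05% of all far distal regions.

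CTCF matches were scarce, and far more of them lay in gained than in lost regions. They were in 38 gained regions (7.79%) and 4 lost regions (0.585%), a difference of 7.20 points (4.95 to 9.95), against 3.71 points (2.70 to 4.83) among nearer regions. The far distal difference was 3.66 points (1.38 to 7.05) with peaks above the median area of their list, and the far distal and nearer differences were not tested against each other. Shared far distal regions had a match in 2.96%, and those with other call patterns in 5.06%. Of 311 far distal regions with a CTCF match 12.2% were gained and 1.29% lost, against 5.75% and 8.05% of all far distal regions. In 143 that were called in all 4 libraries, 63 (44.1%) ranked higher in both cKO libraries and 8 (5.59%) lower. Over all shared far distal regions these shares were 26.5% and 35.2%. Per library CTCF matches were in 2.55% and 3.19% of far distal regions called in WT, and in 3.99% and 3.98% of those in cKO (exact permutation p = 0.333). Without the CTCF-matched regions the gained share went from 4.71% at 100 to 200 kb to 9.32% beyond 1000 kb.

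NF-kB, a mediator of inflammatory gene induction, went the other way. Its motif was in 12 gained (2.46%) and 47 lost (6.87%) far distal regions, a difference of -4.41 points (-6.80 to -1.97). Of 334 regions with a match, 3.59% were gained and 14.1% lost, against 5.75% and 8.05% of all far distal regions. Of the 185 shared ones 99 (53.5%) ranked lower in both cKO libraries and 30 (16.2%) higher, against 35.2% and 26.5%. Per library the motif was in 4.32% and 4.14% of WT and 3.61% and 3.46% of cKO far distal regions (exact permutation p = 0.333). RUNX matches were in 12.5% of gained and 7.46% of lost regions (difference 5.04 points, 1.59 to 8.71). For PU.1, C/EBP, the MAF half-site and ISRE the interval of the difference included 0, with 10.9% and 14.0%, 18.6% and 17.5%, 6.76% and 5.85%, and 5.94% and 4.53% in gained and lost regions.

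**Figure D4:**
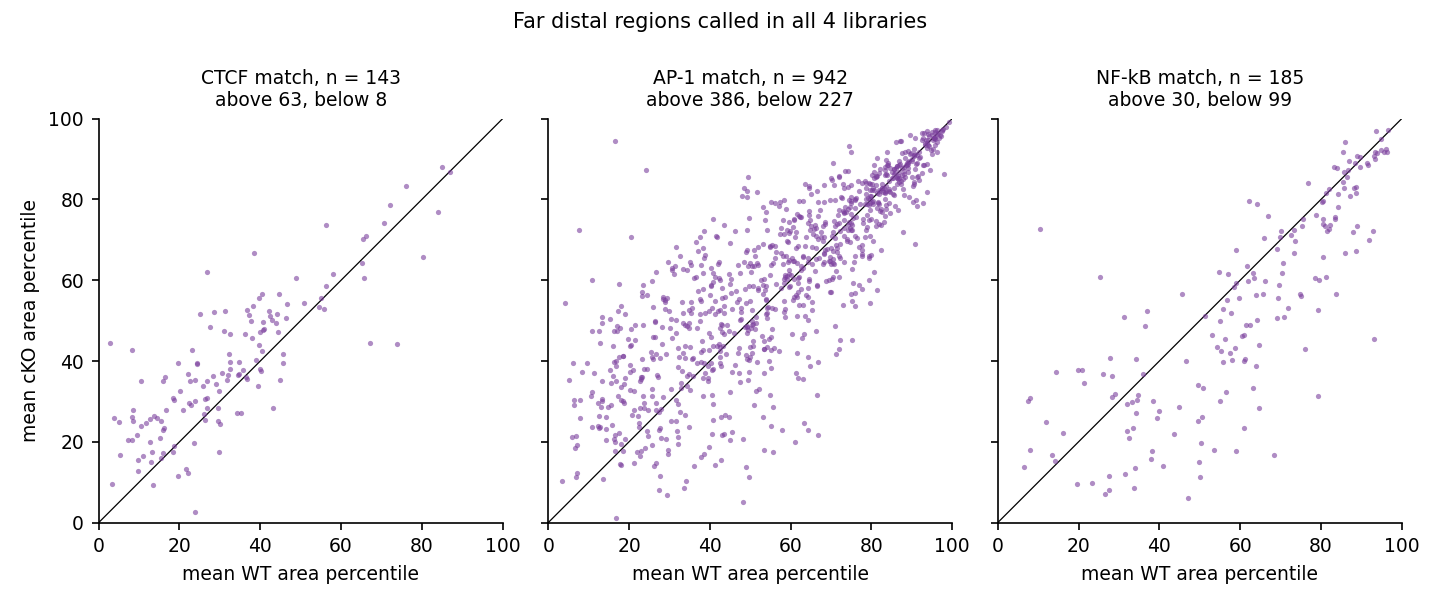
Mean area percentile in cKO (vertical) against WT (horizontal) for far distal regions called in all 4 libraries with a CTCF (143 points), AP-1 (942 points) or NF-kB (185 points) match. Each point is one region and the line marks equal percentiles. Of the CTCF points 63 had both cKO libraries above both WT libraries and 8 below, and of the NF-kB points 30 above and 99 below. Over all 4829 shared far distal regions 1278 were above and 1701 below.

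Genes were attached to far distal regions by the nearest protein-coding TSS, which is a label and not evidence of regulation. Of 5 gene lists, macrophage and myeloid transcription factors were nearest for 335 far distal regions through 25 of the 52 genes. Of these 10 were gained (2.99%; 1.63 to 5.41) and 36 lost (10.7%; 7.86 to 14.5), against 5.83% and 8.05% of 7922 regions with no listed gene nearest. Of the 209 shared regions, 27 (12.9%) ranked higher and 91 (43.5%) lower in both cKO libraries. The sign, more lost than gained, held without each library in turn (-15.5 to -4.19 points). Without cKO replicate 1 the interval of the difference included 0 (-8.74 to 0.302).

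The regulators with most far distal regions in that list were Maf, a basic leucine zipper factor that restrains macrophage self-renewal, Zeb2, a zinc-finger repressor needed for myeloid cell identity, Klf4, a monocyte differentiation factor, and Id2 and Myc. Over all far distal regions 5.75% were gained and 8.05% lost, and of the shared ones 26.5% ranked higher and 35.2% lower. Single genes were not tested against these shares. Maf had 43, of which 4 were lost (9.30%) and 0 gained, and in 29 shared regions 2 ranked higher and 16 lower in cKO. Zeb2 had 42, of which 7 were lost and 1 gained, and in 22 shared regions 2 ranked higher and 11 lower. Klf4 had 34, with 1 lost and 26 shared, of which 2 ranked higher and 12 lower.

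Id2, an inhibitor of helix-loop-helix factors, had 29, with 2 lost, 1 gained and 19 shared, of which 3 ranked higher and 11 lower. Myc, the growth regulator, had 29, with 3 lost (10.3%), 1 gained (3.45%) and 17 shared. Of the shared ones 4 ranked higher (23.5%) and 5 lower (29.4%), so the shares at Myc lay near those of all far distal regions. The 3 lost ones lay in Pvt1, the non-coding gene beside Myc, the strongest at chr15:62265574-62266171 (percentiles 29.0 and 28.7 in WT). The gained one, chr15:61540760-61541370, reached 36.8 and 52.0 in the cKO libraries. Klf6 (28 regions, 5 lost, 1 gained), Mef2c (24, 4 lost, 2 gained), Prdm1 (20, 0 lost, 1 gained), Runx1 (15, 5 lost, 0 gained) and Bcl6 (7, 2 lost, 0 gained) completed the list of genes named by the rule. Bhlhe40, with 14 regions, and Tcf4, with 10, had 0 gained and 0 lost and were added after their values were seen; 2 of 10 shared regions of Bhlhe40 ranked higher and 0 lower, and of 8 at Tcf4 1 ranked higher and 2 lower.

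Developmental transcription factors, which direct the formation of other lineages, were nearest for 181 far distal regions through 39 of 126 annotated genes. Of these 16 were gained (8.84%; 5.51 to 13.9) and 9 lost (4.97%; 2.64 to 9.18), against 5.75% and 8.05% of all far distal regions. The difference, 3.87 points, had an interval that included 0 (-1.49 to 9.42), and it was -6.04 without WT replicate 1, -4.23 with peaks above the median area of their list and 9.09 (2.89 to 15.7) with lists of equal length. Among the 103 shared regions 26 (25.2%) ranked higher and 42 (40.8%) lower, near the 26.5% and 35.2% of all shared far distal regions. Zfhx3 had 21 regions with 3 gained and 1 lost, Tshz1 18 with 1 gained, Bcl11a 14 with 2 gained, Sox9 13 with none in either direction, and Sall3 and Sox4 12 each with 1 gained. Sox5 had 10 with 1 gained and 2 lost, and Nfia and Nr2f2 had 7 each with 1 lost.

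The remaining lists had few far distal regions, too few to set their counts apart from the 5.75% gained and 8.05% lost of all far distal regions. AP-1 and ATF family genes had 26 regions through 3 genes, 23 of them at Jun, with 0 gained and 1 lost. Macrophage receptors and effectors had 27 through 10 genes, with 0 gained and 0 lost, among them 11 at the chemokine receptor gene Cxcr4 and 6 at Tlr4, the receptor for bacterial lipopolysaccharide. At Cxcr4 7 of 10 shared regions ranked lower in both cKO libraries, against 35.2% of all shared far distal regions. Interferon-stimulated genes had 1, at Rtp4, called in all 4 libraries.

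The 100 kb rule itself places far distal regions in wide gaps between protein-coding TSSs. They lay in 1411 gaps between neighbouring protein-coding TSSs, and the 282 gaps with 10 or more held 4849 of them. Whether these counts exceed what the length of the gaps would give was not tested. A gained region was found in 372 gaps and a lost one in 393, with both in 88. Another region of the same class lay within 50 kb for 92 of 488 gained (18.9%), 257 of 684 lost (37.6%) and 3880 of 4829 shared regions (80.3%), shares that also depend on the size of each class. A gap with 2 or more lost and no gained region occurred 117 times, and one with 2 or more gained and no lost region 66 times. These counts too depend on the size of each class.

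The gap between Adam6a and Zfp386 on chromosome 12, which spans the immunoglobulin heavy-chain locus, held the most far distal regions. Immunoglobulin gene segments are not typed as protein-coding genes, so their starts did not count as TSSs here. In the whole set, 99 far distal regions lay within 10 kb of an immunoglobulin or T cell receptor segment. The 81 regions of this gap included 4 gained and 4 lost, and of 42 shared ones 12 ranked higher and 4 lower in cKO. Between Zeb2 and Acvr2a on chromosome 2, 62 regions included 9 lost and 1 gained, the most lost of any gap. The lost ones lay from 119 to 1535 kb from Zeb2 on its side of the gap, and on the side of Acvr2a at 175 and 274 kb from that gene. Between Nmbr and Cited2 on chromosome 10, the latter a co-regulator of transcription, 58 regions included 7 lost and 0 gained, and 18 of 31 shared ones ranked lower and 4 higher. Over all far distal regions 5.75% were gained and 8.05% lost, and of the shared ones 26.5% ranked higher and 35.2% lower. Single gaps were not tested against these shares.

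The strongest lost region of the Zeb2 gap, chr2:46652609-46652984, had percentiles of 46.5 and 47.7 in WT, and it was also the lost region farthest from any protein-coding TSS in the set (1535 kb). A lost region at chr2:45236198-45236589, 119 kb from Zeb2, had 33.4 and 37.1. Between Runx1, a transcription factor of blood formation, and Setd4 on chromosome 16, 7 of 20 regions were lost. The strongest, chr16:93141979-93142586, lay 316 kb from Runx1 with percentiles of 47.8 and 56.7 in the WT libraries, and its window is among the sequences printed. Between Disc1 and Sipa1l2 on chromosome 8, 8 of 18 regions were lost, the strongest chr8:125240593-125241089 with 52.7 and 51.3, and all 5 shared regions ranked lower in cKO. Pkn2 to Lmo4 on chromosome 3 had 7 of 42 lost. Between Wwox and Maf on chromosome 8, 56 regions included 5 lost and 1 gained. The lost share there (8.93%) lay near the 8.05% of all far distal regions. Of 37 shared ones 17 ranked lower (45.9%, against 35.2% of all) and 3 higher (8.11%, against 26.5%).

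For gained regions 88 gaps held 2 or more, and for lost regions 156. These counts also depend on the totals of 488 gained and 684 lost regions. Of all far distal regions 5.75% were gained. Between 2010111I01Rik and Fancc on chromosome 13, 6 of 24 regions were gained and 1 lost. The 6 lay within introns, except chr13:63301048-63302225, which overlapped the genes of the microRNAs Mir24-1 and Mir3074-1 and reached 1.603 and 40.1 in cKO. The strongest, chr13:63304809-63307656, had 88.8 and 89.98. Between Brinp3 and Pla2g4a on chromosome 1, a gap of 3425 kb, 5 of 19 were gained and 0 lost, and between Adgrl2 and Adgrl4 on chromosome 3, 4 of 48 were gained and 3 lost, a number of gained regions that other gaps shared. Between Fbxo7 and Timp3 on chromosome 10, in introns of Syn3, 4 of 5 were gained, with percentiles up to 48.8 and 56.4.

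**Figure D5:**
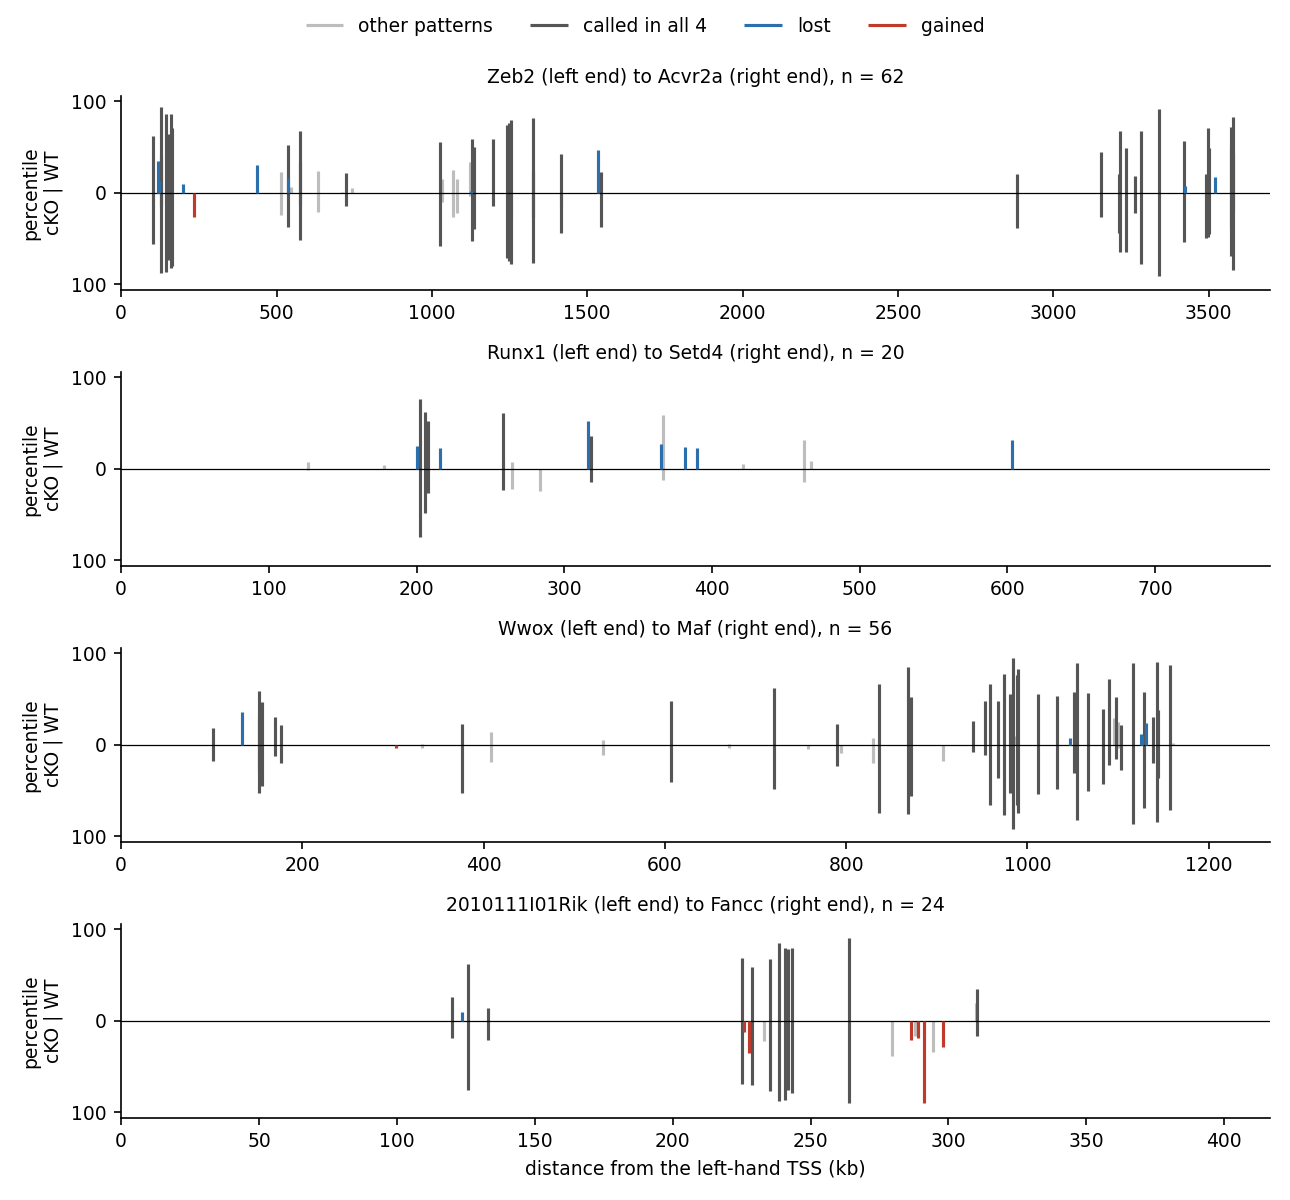
Far distal regions by distance in kb from the left-hand TSS in 4 gaps between protein-coding TSSs, with the mean WT percentile drawn upward and the mean cKO percentile downward. Black bars were called in all 4 libraries, blue bars lost, red bars gained and light grey bars other patterns. The Zeb2 and Runx1 gaps carry 9 and 7 lost regions, and the Fancc gap carries 6 gained ones.

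The strongest shared far distal regions ranked near the top of every list. The region chr17:39842953-39848874 had a percentile of 99.996 in each, and overlapped a ribosomal RNA gene (CT010467.1) and non-coding genes. Whether reads from other copies of that repeat add to it was not tested. The region chr13:107889615-107892401, at the start of a processed transcript of Zswim6, reached 99.9 and 99.9 in WT and 99.7 and 99.8 in cKO. chr1:7396724-7398706 (99.4, 99.5, 99.7 and 99.6), chr6:117430791-117432268, 263 kb from the chemokine gene Cxcl12 (99.6, 99.6, 99.3 and 99.4), and chr10:66864127-66865565 (99.2, 99.1, 99.2 and 99.1) followed, in the order WT replicates 1 and 2, then cKO replicates 1 and 2.

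Strong and weak peaks both occurred at the largest distances. The far distal region farthest from any protein-coding TSS, chr1:101901661-101903127, lay 2130 kb from Cntnap5b and had percentiles of 95.6 and 97.2 in WT and 96.4 and 97.5 in cKO. chr5:59996401-59997240, 1812 kb from G6pd2, had 95.3 and 95.8 in WT and 96.8 and 97.1 in cKO. chr5:59854849-59855132, 1954 kb from the same gene, was far weaker, with 15.02 and 33.6 in WT, then 20.9 and 38.03 in cKO. Near Pcdh18, chr3:48104435-48104892 had 56.04 and 60.6 in WT and 69.7 and 72.9 in cKO, and its neighbour chr3:48100706-48101568 had 89.0 and 91.4 in WT against 90.9 and 91.1 in cKO.

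The strongest gained far distal regions were chr14:124799482-124801596 (89.3 and 96.8 in cKO), 123 kb from Fgf14, and chr1:195369625-195371617 (87.0 and 92.3), 194 kb from the complement receptor gene Cr2. chr13:63304809-63307656, chr5:36089073-36089737 in an intron of Sorcs2 (86.2 and 90.9) and chr10:3117109-3118168 (82.6 and 90.0007) came next. The strongest lost ones were weaker. chr2:102056949-102057715, 129 kb from Ldlrad3, had 79.6 and 81.8 in WT, chr3:50694555-50694926, 251 kb from the cystine transporter gene Slc7a11, had 63.0 and 67.7, and chr10:42122756-42123241, 105 kb from Armc2, had 64.4 and 62.2. chr6:95552218-95552886 in an intron of Suclg2 (58.2 and 64.0) and chr7:135110163-135110689 in an intron of Dock1 (60.8 and 60.6) followed.

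At the limit of 100 kb itself, the 3 regions just inside were chr2:18897728-18898510, 100.007 kb from Pip4k2a (93.1 and 93.4 in WT, 90.3 and 89.7 in cKO), chr15:9629671-9630035 near Il7r (66.5 and 70.0, 65.0 and 68.4) and chr8:11108354-11108582 near Irs2, called in cKO replicate 2 only at 2.38. Regions just outside included chr8:78113168-78113462 at 99.982 kb from Ttc29 (8.11 and 12.3, 17.6 and 27.6) and chr2:135957666-135958228 at 99.98 kb from Lamp5 (42.9 and 50.9, 45.999 and 47.1).

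The 2 strongest gained far distal regions, and chr6:149584681-149586470 (69.4 and 86.4 in cKO), lay within 1 kb of the last assembled base of their chromosome, at 648, 354 and 76 bp from it. This was looked into after the values were seen. A region called in at least 1 library lay within 1 kb of that base on 15 autosomes. The WT libraries had 1 and 1 of the 15 called and the cKO libraries 11 and 15. The 15 were defined by these same calls, so the counts describe these lists and no p is given. Of these regions 10 were gained and 0 lost, 4 were far distal, and the fourth of these, chr17:94886493-94887119, was called in cKO replicate 2 only (19.6). The window here shows the one on chromosome 6, with capitals marking the TTAGGG telomere repeat, which it holds in 3 tandem copies. Telomere repeats are shared by chromosome ends, and how reads with such repeats were placed was not tested.

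Gained, chromosome 6 end, chr6:149586321-149586470: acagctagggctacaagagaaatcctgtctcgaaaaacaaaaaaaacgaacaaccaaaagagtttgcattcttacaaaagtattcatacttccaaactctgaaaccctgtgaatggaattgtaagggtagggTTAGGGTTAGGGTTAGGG

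Checks of the cells gave mixed results, and those of the alleles were limited. Promoters of 10 of 10 macrophage markers were called in all 4 libraries and those of 0 of 5 T cell markers, while 1 of 5 B cell (Ms4a1), 1 of 5 fibroblast (Col1a1) and 0 of 5 neutrophil markers were, with Ly6g called in both cKO and neither WT library. Of 2 regions over exons of H3f3a, one was called only in WT (5.02 and 19.1) and the other in every library (95.95 and 97.2 for the WT pair, 93.4 and 94.1 for the cKO pair). Both regions over exons of H3f3b had a peak in every library. One had 94.2 and 95.5 for the WT pair and 87.0 and 81.4 for the cKO pair. The other had 23.7 and 34.3, then 28.7 and 42.5. Overlap was taken with any exon, and whether the H3f3a regions cover the floxed exon 2 was not tested. The paper reports that deletion of H3f3b appeared variable, from partial to complete. Of far distal regions within 10 Mb of H3f3a, 2 of 90 were gained and 11 lost. There 31 of 47 shared ones ranked lower in cKO, against 35.2% of all shared far distal regions. Within 10 Mb of H3f3b 0 of 78 were gained and 8 lost, with 14 of 42 shared ones lower. Within 10 Mb of Lyz2 6 of 98 were gained and 6 lost, with 19 of 59 shared ones lower. Outside windows of 10 Mb around H3f3a, H3f3b and Lyz2 480 of 8226 (5.84%) were gained and 659 (8.01%) lost.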

How the data were processed

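Open chromatin was profiled by ATAC-seq in 2 WT and 2 cKO BMDM libraries. Per the labels and the study's methods, the authors aligned reads with Bowtie2 2.5.1 to mm10 and called peaks per library with Genrich at default settings. Filters, duplicate removal and read shifting are not given in the sources used here, and read depths were not analysed here, so the depth behind each value is unknown. The deposited signal column of each peak is its area, which Genrich does not list below about 200, and it was used only as a percentile within its own list. Sequences, repeat masking and GC content came from RefSeq GRCm38.p6. TSSs were those of the GENCODE vM21 basic set, which has 41505 protein-coding TSS positions. Motif matches were sought within 100 bp of the summit of the highest-ranked peak.

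Regions were merged, classified and counted with Python 3.11.15, pandas 2.3.3, numpy 2.4.6, scipy 1.17.1 and matplotlib 3.10.9, with steps tested on simulated data. Library values were compared by two-sided exact permutation over the 6 assignments of labels to libraries. Other comparisons are counts and shares beside their background, with Wilson 95% intervals (differences by Newcombe's method), and have no p. That method treats the shares compared as independent. The gained minus lost differences beyond 500 kb and for gene lists take both shares from the same regions. Their intervals are therefore somewhat too narrow. Regions named were the 5 strongest and 5 farthest called in all 4 libraries, the 5 strongest gained and lost, the 3 on each side of the limit, the 3 gaps with most far distal, gained or lost regions, and, up to 10 a list, the list genes with most regions and those with a call. The gaps Runx1 to Setd4, Wwox to Maf and Fbxo7 to Timp3, and further regions within gaps, were chosen after their values were seen. The far distal set and the gene lists were chosen with earlier results of these data known. Alternatives were a stricter peak threshold, lists of equal length, cover of 50% of a region, other distance limits, all annotated TSSs, the summit in place of the centre, and leaving out each library. Some markers, regions and sequences that these rules cover are not reported here.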

Additional observations from a re-analysis of the deposited data

How the results depend on the processing

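Of 143 values recomputed under alternatives, 98 stayed within the set limits, 37 moved and 8 changed sign. The gained share of far distal regions stayed above that of regions 1 to 100 kb from a TSS under every alternative run. The alternatives for this difference and for the lost, over 500 kb, gene list and chromosome end differences were chosen after seeing the data. The cause of each shift was not tested unless stated.

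With peaks above the median area of their own list only, 228 far distal regions were gained and 349 lost, 54.8% were called in all 4, and the gained minus lost difference was 23.3 points for AP-1 and 3.66 points for CTCF. The lost difference between far distal and nearer regions turned to 0.174 points, and the developmental factor difference to -4.23 points. With lists cut to equal length, 708 were gained and 605 lost, 60.8% were called in all 4, the developmental factor difference was 9.09 and that beyond 500 kb 8.30 points, and the difference in far distal regions per library turned to 230.5. A limit of 50 kb gave 882 gained and 1409 lost regions, and one of 200 kb gave 231 and 227, with 54.9% in all 4 and a library difference of 25. With TSSs of all genes, 87 were gained and 120 lost, 55.7% were called in all 4 and the CTCF difference was 10.7 points. Requiring peaks to cover 50% of a region left 52.6% in all 4.

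Leaving out each library in turn gave 504 to 1103 gained and 718 to 1306 lost regions, with 61.5% to 62.6% called in all remaining libraries. With 3 libraries a call needs fewer of them, which raises these counts. The difference in far distal regions per library ran from -850 to 374, with a sign change to 359.5 when WT replicate 2 was dropped and to 374 when cKO replicate 1 was. The difference in the far distal percentage ran from 0.179 to 0.521 points, and in the median percentile from -1.06 to -0.15. The AP-1 difference ran from 12.9 to 16.6 points, the CTCF difference from 5.61 to 8.53, the gained difference from 1.70 to 2.97, and the lost one from -1.20 to -0.44. The difference beyond 500 kb ran from -4.01 to 14.7 and turned without WT replicate 1, as did that of developmental factors, from -6.04 to 11.0. That of myeloid factors ran from -15.5 to -4.19, and that of autosomes with a region near the end from 10 to 15.

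The libraries share replicate numbers 1 and 2. With the replicate block the library differences stayed at -241 regions, 0.359 points and -0.62 percentile, with an exact permutation p of 0.5, the smallest it allows, and the 488 gained and 684 lost regions and the 56.9% in all 4 did not change. Depth could not be set beside these shifts, since only peak lists were analysed.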
